A study of Mus musculus with 9 samples.

Results

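Fc receptors bind the constant part of antibodies. The genes examined here, chosen by symbol from the rows of the count table and not by their values, were 7 of 23413: the Fc gamma receptors Fcgr1, Fcgr2b, Fcgr3 and Fcgr4, the signalling chain Fcer1g, the neonatal Fc receptor Fcgrt and the kinase Syk. All 7 passed the filter on low counts, which left 11393 genes to test. RNA was sequenced from macrophages sorted as F4/80+CD11b+Gr1low from the livers of male C57BL/6 mice, and the table held 9 libraries. Mice were placed on their diets at 5 weeks of age for 8 weeks. NC mice (n = 2 libraries) received normal chow, HFD+Veh mice (n = 3 libraries) a high-fat diet (HFD) with injections of PEG3000 as the vehicle, and HFD+DPI mice (n = 4 libraries) the HFD with diphenyleneiodonium (DPI), a small molecule studied here as an agonist of the receptor GPR3, at 2 mg/kg every 5 days from week 3. The study's methods name the vehicle only for HFD-fed mice, so that diet and injections cannot be told apart in the comparison of HFD+Veh with NC. The treatment field of the labels describes another treatment, of purified cells with 500 nM DPI for 24 h; the groups follow the titles, which name separate mice.

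An antibody bound to its target is read by macrophages through activating receptors, which pair with the chain encoded by Fcer1g. That chain holds an immunoreceptor tyrosine-based activation motif (ITAM), which binds Syk once it is phosphorylated. The receptor encoded by Fcgr2b carries an inhibitory motif (ITIM) in its own tail and opposes this signal, and the balance between both kinds of receptor sets the response of a macrophage to immune complexes. FcRn, encoded by Fcgrt, works inside the cell and returns IgG and albumin from endosomes to the surface.

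The inhibitory motif of Fcgr2b and the activation motif of Fcer1g are shown first, as coding sequence on the minus strand of chromosome 1 in GRCm38, 5′ to 3′, from the GENCODE M21 transcripts. Capitals mark the isoleucine, tyrosine and leucine codons of the ITIM and the tyrosine and leucine codons of the ITAM. The ITIM lies at chr1:170961071-170961088 within 1 exon of Fcgr2b, and the ITAM spans an intron of Fcer1g between chr1:171229889 and 171230072. The letters of an ITIM alone are not particular to Fcgr2b: an ITIM-like run of codons also occurred once each in Fcgr1, Fcer1g and Fcgrt, while an ITAM was found in Fcer1g alone of the 7 coding sequences.
Fcgr2b ITIM: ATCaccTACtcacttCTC
Fcer1g ITAM: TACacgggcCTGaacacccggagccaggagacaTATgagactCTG

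Of these genes 4 lie close together on chromosome 1: Fcgr2b at chr1:170958617-170976547, Fcgr4 at chr1:171018920-171029761, Fcgr3 at chr1:171051174-171064935 and Fcer1g at chr1:171229572-171234365. Fcgr1 is at chr3:96282909-96293969, Fcgrt at chr7:45092990-45103851 and Syk at chr13:52583173-52648792. Fcgr2b and Fcgr3 encode closely related outer domains although their tails differ. Over 509 aligned coding bases, 491 (96.46%) were identical, against 66.45% for Fcgr2b with Fcgr4 and 66.14% for Fcgr3 with Fcgr4. The longest run of identical bases in this alignment was 129. The stretches of 120 bases printed next were chosen among those with at least 1 difference, as the first with the fewest, to show where a single base separates both genes, at chr1:170967984-170968103 in Fcgr2b and chr1:171057695-171057814 in Fcgr3, both exonic, coding and on the minus strand, with the differing base in capitals.
Fcgr2b: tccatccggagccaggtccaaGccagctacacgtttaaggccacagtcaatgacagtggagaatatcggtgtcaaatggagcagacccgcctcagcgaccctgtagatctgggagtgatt
Fcgr3: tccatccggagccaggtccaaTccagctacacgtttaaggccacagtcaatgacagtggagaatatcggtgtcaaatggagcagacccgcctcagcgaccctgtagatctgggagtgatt

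Of the 36-base windows of the Fcgr3 transcript, 208 of 1312 (15.9%) also occurred in Fcgr2b, and of its 75-base windows 94 of 1273 (7.38%) did. Reads from these windows cannot be assigned to 1 of both genes by sequence, and how they were divided was not tested, so the levels of Fcgr2b and Fcgr3 are uncertain. Of the 36-base windows of the Fcgr2b transcript, 484 of 3509 (13.8%) occurred in another gene, Fcgr3 holding 208 of them, Ntrk3 211, Olfr1039 179 and Gm4117 170, and some windows in more than 1 of these. Fcgr1, Fcer1g, Fcgrt and Syk shared no 36-base window with another gene, and Fcgr4 shared 5 of 1221.

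Library totals lay between 3534325 and 15585775 counts, and between 27% and 44.5% of the counts fell on the ribosomal RNA precursor Rn45s. The smallest count taken to differ from none was set at 3, which corresponds to between 0.184 and 1.02 CPM (counts scaled to a common library total, with TMM factors throughout). The 9 macrophage markers summed to between 15340 and 44570 CPM, of which Lyz2, a lysozyme gene that monocytes and neutrophils also express, made up between 91.1% and 96.3%. The other 8, summed after the values were seen, were led by Csf1r and Cd68 and came to between 1064 and 1810 CPM. Genes that define resident KCs were not: Marco had 1 count in 1 library and none in the other 8, Vsig4 was at 0 in 5 libraries, Timd4 was at 0 in 5, and Clec4f ranged from 0 to 244 counts. Of the 10 Kupffer cell markers 5 passed the filter, and most of their summed level came from Id3. Monocyte markers (Plac8, Ly6c2, Chi3l3) summed to between 3629 and 8120 CPM, above the macrophage markers other than Lyz2 in all 9 libraries, and neutrophil markers (S100a9, S100a8, Retnlg) to between 869 and 5617 CPM. Lower still were the markers of T cells (99.8 to 456 CPM), NK cells (63.9 to 231), hepatocytes (52.6 to 217, with Hnf4a at 0 in all libraries) and of eosinophils, basophils and mast cells (2.22 to 131). The cells are named here by their sort, as sorted liver macrophages. In bulk RNA, fewer cells of a type and less RNA per cell cannot be told apart.

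**Figure D1:**
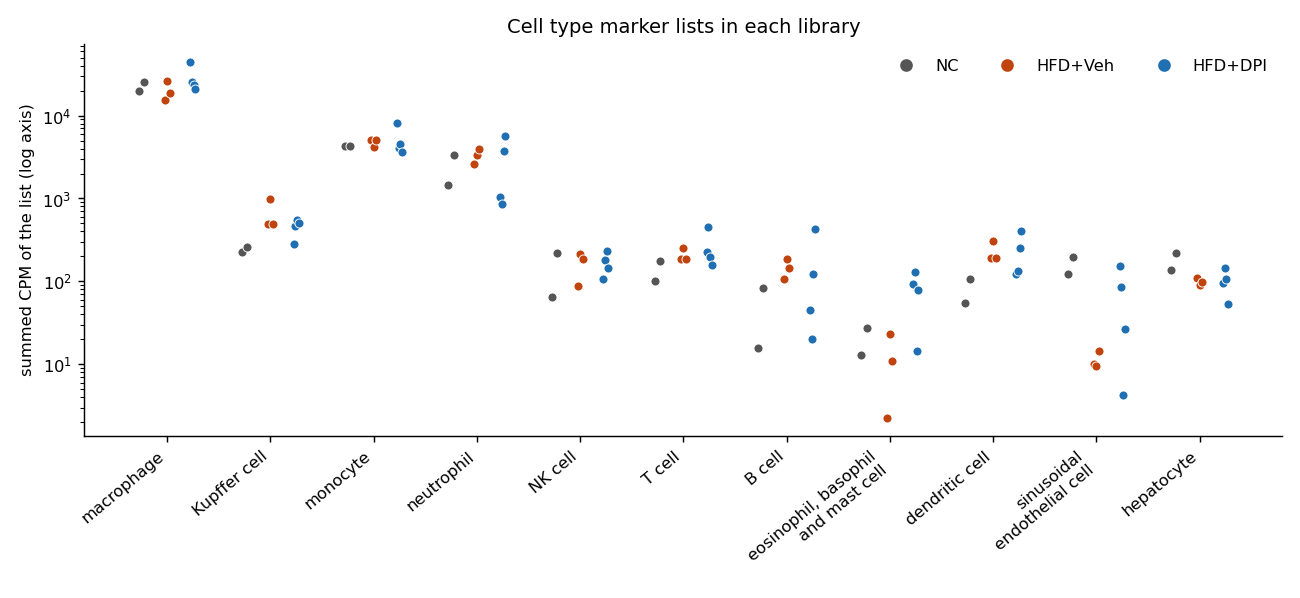
Summed CPM of 11 cell type marker lists (log axis) in the 9 libraries, 1 point per library, coloured by group. The sinusoidal endothelial list lies between 9.43 and 14.6 CPM in HFD+Veh, below both NC libraries (124 and 194 CPM). The Kupffer cell list is higher in every HFD+Veh library than in both NC libraries, which Id3 carries, and without Id3 these groups overlap.

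The Fc receptor genes differed widely in level. CPM was divided by transcript length for comparison between genes, using the exons within the RefSeq gene bounds of the same build. Fcer1g was far above the rest, with a median of 3211 CPM per kb over the 9 libraries (lowest 2548, highest 4014). Its count was between 6471 and 39657 per library, and it ranked 31 of the 11393 tested genes by mean log2 CPM. Fcgr3 followed at a median of 268 CPM per kb (211 to 327) and Fcgr2b at 202 (162 to 312). Their ranges overlapped, and Fcgr3 was above Fcgr2b in 6 of 9 libraries. Fcgr4 had a median of 59.0 CPM per kb (18.4 to 104), below Fcgr2b in all 9 libraries.

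Syk (median 28.4 CPM per kb, 18.6 to 55.6), Fcgrt (24.9, 17.8 to 29.8) and Fcgr1 (25.1, 11.2 to 36.3) formed the low end, and neighbours in this order overlapped. The place of Fcgr2b depends on the length used. The GENCODE transcript of Fcgr2b has 3544 bases, of which 1547 lie within the RefSeq bounds, and with the full length its mean level fell from 225 to 98.4 CPM per kb, below Fcgr3 in all 9 libraries. With coding length, Fcgr3 was above Fcgr2b in 8 of 9. Both of these length scales were added after the data were seen.

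**Figure D2:**
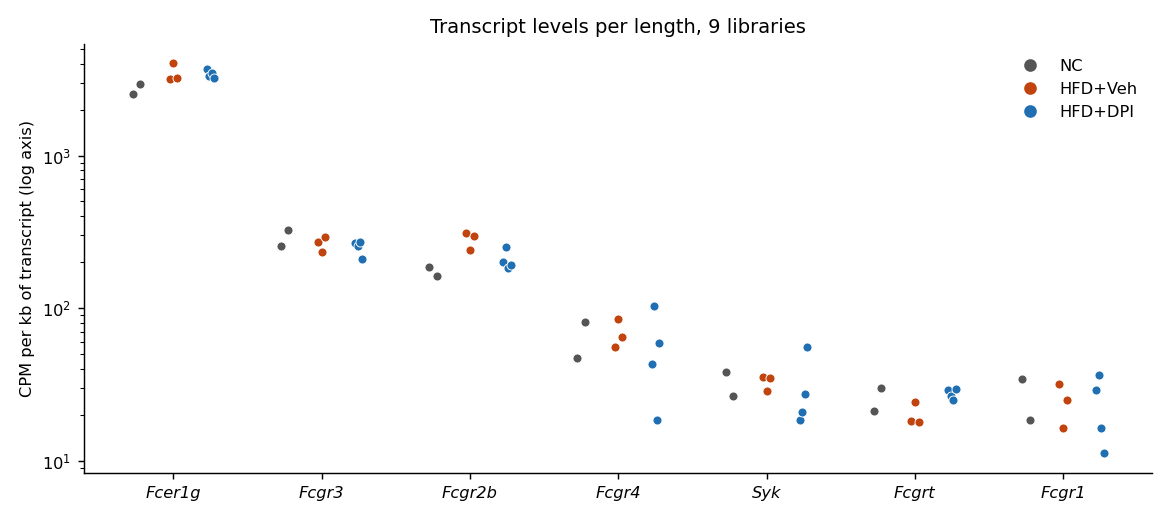
CPM per kb of transcript (log axis) of the 7 genes, ordered by their mean, 1 point per library and coloured by group. Fcer1g lies between 2548 and 4014 in every library, apart from all others, while Fcgr3 and Fcgr2b overlap and the 3 genes at the right overlap with each other.

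The spread between libraries of a group also differed among these genes. On the log2 CPM scale, the within-group SD was 0.14 for Fcer1g, 0.19 for Fcgr3, 0.19 for Fcgr2b and 0.22 for Fcgrt. Of the tested genes, between 0.246% and 1.76% had a smaller SD than these. Among genes within 0.5 log2 units of its own level, 2.56% of 1407 had a smaller SD than Fcgrt, 2.08% of 48 a smaller SD than Fcer1g, 8.02% of 162 a smaller SD than Fcgr3 and 11.8% of 161 a smaller SD than Fcgr2b. Fcgr1, Fcgr4 and Syk varied more, with SDs of 0.66, 0.79 and 0.54. At like level, 87.5%, 94.1% and 82.1% of genes had a smaller SD.

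The first comparison, HFD+Veh with NC, asks what the diet did to liver macrophages. Of the 7 genes, none passed the study's threshold (an unadjusted p below 0.05 together with a 2-fold change or more), which called 7.03% of all tested genes higher and 4.63% lower (edgeR). With library size scaling in place of TMM, the split over all genes turned from 801 higher and 528 lower to 539 higher and 933 lower. The inhibitory receptor Fcgr2b alone had an unadjusted p under 0.05 (13% of all genes did), and none had an adjusted p under 0.05 (0.0614%). The CPM ranges of both groups did not overlap for 2 of the 7 genes, Fcgr2b and Fcer1g, as for 27.5% of all tested genes. The median log2 fold change of the 7 was 0.02, and that of all tested genes was 0.03. Their median size was 0.14, against 0.65 for all tested genes.

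Of the activating receptors, Fcgr1 is the high-affinity IgG receptor. Its level was 88.3 and 47.6 CPM in the NC libraries and 82.4, 42.6 and 64.9 CPM in the HFD+Veh libraries. The groups overlapped, and the log2 fold change was -0.10 (SE 0.49, 95% interval -1.17 to 0.96, edgeR adjusted p = 0.960).

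Fcgr3, the low-affinity receptor that also serves neutrophils and NK cells, stood at 346 and 440 CPM in NC and at 364, 312 and 396 CPM in HFD+Veh. The values again overlapped. Its log2 fold change was -0.14 (SE 0.27, 95% interval -0.71 to 0.44, edgeR adjusted p = 0.882). A fall to less than 0.61 times the NC level lies outside that interval, which holds for TMM scaling only. With library size scaling the log2 fold change of Fcgr3 was -0.44 (SE 0.28).

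Fcgr4 encodes the receptor for IgG2a and IgG2b complexes and is found on monocytes, macrophages and neutrophils. It had 59.0 and 101 CPM in NC and 69.9, 106 and 80.8 CPM in HFD+Veh, with a log2 fold change of 0.09 (SE 0.54, 95% interval -1.07 to 1.26, edgeR adjusted p = 0.967). A change of 2-fold in either direction lies inside that interval.

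Fcgr2b had the smallest unadjusted p and the largest log2 fold change of these genes. It had 289 and 250 CPM in the NC libraries (1589 and 1340 counts) and 482, 373 and 459 CPM in the HFD+Veh libraries (2171, 2058 and 1853 counts). Every HFD+Veh library was above both NC libraries. The mean was 270 ± 27.7 CPM (SD, n = 2) in NC and 438 ± 57.3 CPM (SD, n = 3) in HFD+Veh, which edgeR fitted as a log2 fold change of 0.70 (SE 0.28, 95% interval 0.10 to 1.30), 1.62-fold, with an unadjusted p of 0.0255 and an adjusted p of 0.333. The difference did not pass the adjustment over all genes.

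With library size scaling, which lowers the median over all genes from 0.03 to -0.26 (log2), the log2 fold change of Fcgr2b was 0.40 (edgeR unadjusted p = 0.189). The unadjusted p was also over 0.05 without NC replicate 1 (0.0532), without NC replicate 2 (0.124) and without HFD+Veh replicate 1 (0.0552, edgeR). Over all 18 alternative settings the value stayed positive, between 0.40 and 0.82, and the unadjusted p was under 0.05 in 14, while no adjusted p was below 0.186.

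Other cell types of the liver also use Fcgr2b, among them B cells and sinusoidal endothelial cells. All 7 B cell markers passed the filter, and their summed level was 15.9 and 83.9 CPM in NC and between 106 and 187 CPM in HFD+Veh, thus higher in each HFD+Veh library, as was the case for the 6 dendritic cell markers (54.6 and 108 CPM against 190 to 307 CPM). The Kupffer cell list, carried by Id3, was also higher in each HFD+Veh library (229 and 256 CPM against 488 to 981 CPM), and so were the T cell markers (99.8 and 174 CPM against 186 to 253 CPM). Without Id3, again left out after the values were seen, the other 9 Kupffer cell markers summed to 9.65 and 120 CPM in NC and between 37.7 and 62.8 CPM in HFD+Veh, and the groups overlapped. Clec4f, for example, had 0 and 244 counts in NC and 42, 0 and 0 in HFD+Veh. The dendritic cell sum was likewise carried by Ccr7, and without it the other 5 markers overlapped, at 54.6 and 61.1 CPM in NC and 75.5, 30.7 and 52.0 CPM in HFD+Veh. The T cell sum without Cd8b1 was 50.1 and 141 CPM in NC and between 141 and 202 CPM in HFD+Veh, and the B cell sum without Cd79a was 7.83 and 40.3 CPM against 62.8 to 86.5 CPM. The part of these cells in the level of Fcgr2b was not tested. The summed level of the 8 sinusoidal endothelial markers was 124 and 194 CPM in NC and between 9.43 and 14.6 CPM in HFD+Veh. Most of that sum in NC came from Clec4g and Stab2, which had 0, 0 and 7 and 0, 1 and 8 counts in the HFD+Veh libraries. Pecam1, an endothelial gene of the same list, went the other way, with 5 and 6 counts in NC and 39, 50 and 7 in HFD+Veh. The part of endothelial cells in the level of Fcgr2b was not tested.

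The chain Fcer1g had 1676 and 1944 CPM in NC and 2079, 2641 and 2113 CPM in HFD+Veh. All 3 HFD+Veh libraries exceeded both NC libraries, by a log2 fold change of 0.33 (SE 0.23, 95% interval -0.16 to 0.82, edgeR adjusted p = 0.567). With library size scaling the value was 0.05. Per length, Fcer1g was 7.53 and 6.93 times the sum of Fcgr1, Fcgr3 and Fcgr4 in NC and 8.83, 12.0 and 8.36 times that sum in HFD+Veh.

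Syk, the kinase that binds the phosphorylated chain, had 206 and 142 CPM in NC and 190, 153 and 185 CPM in HFD+Veh. The HFD+Veh values lay within the NC range, and the log2 fold change was 0.02 (SE 0.43, 95% interval -0.91 to 0.94, edgeR adjusted p = 0.996).

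Fcgrt had 37.0 and 51.7 CPM in NC and 31.7, 42.3 and 31.0 CPM in HFD+Veh. The groups overlapped, and the log2 fold change was -0.34 (SE 0.35, 95% interval -1.09 to 0.41, edgeR adjusted p = 0.734). FcRn reaches the membrane only with beta-2 microglobulin, the product of B2m. B2m was higher at 2167 ± 220 CPM (SD, n = 2) in NC and 4592 ± 315 CPM (SD, n = 3) in HFD+Veh, which amounts to a log2 fold change of 1.08 (SE 0.25, edgeR unadjusted p = 0.000836, adjusted p = 0.131). With library size scaling it was 0.79, under the 2-fold limit. B2m also serves MHC class I, and it is no measure of FcRn by itself.

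**Figure D3:**
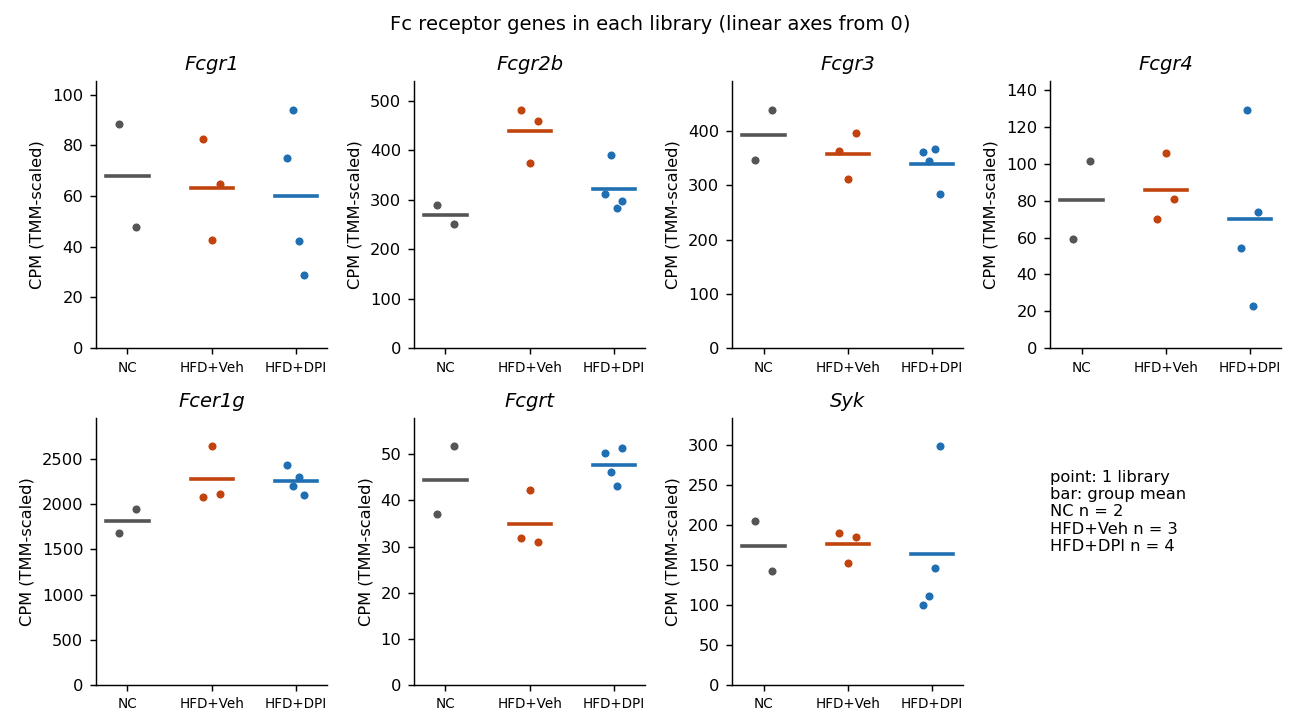
CPM of each gene in each library (linear axes from 0), with the group mean as a bar. Fcgr2b is above both NC libraries (250 and 289 CPM) in all 3 HFD+Veh libraries (373 to 482 CPM), and Fcgrt is higher in all 4 HFD+DPI libraries than in all 3 HFD+Veh libraries, while Fcgr1, Fcgr4 and Syk spread widely within groups.

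The comparison of HFD+DPI with HFD+Veh addresses the effect of the compound in HFD-fed mice. Again none of the 7 genes passed the study's threshold, which called 1.50% of all tested genes higher and 1.34% lower (edgeR). None had an unadjusted p under 0.05 (4.13% of all genes did), and the adjusted p was 0.999 for each of the 7. An adjusted p under 0.05 was reached by 0.00% of all genes (0 of 11393). Of the 7 log2 fold changes 1 was positive and 6 were negative, with a median of -0.08 against 0.04 for all tested genes. The groups did not overlap for 1 gene, Fcgrt (5.85% of all tested genes).

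Fcgr2b had 312, 391, 283 and 298 CPM in the HFD+DPI libraries, 3 of 4 of them below the lowest HFD+Veh library (373 CPM) and HFD+DPI replicate 2 above it. The mean was 321 ± 48.1 CPM (SD, n = 4), and the log2 fold change was -0.45 (SE 0.23, 95% interval -0.94 to 0.04, edgeR unadjusted p = 0.0681). Without HFD+DPI replicate 2 it was -0.56 (edgeR unadjusted p = 0.0337) and without HFD+Veh replicate 2 it was -0.55 (0.0427). With DESeq2 it was -0.45 (unadjusted p = 0.0482, adjusted p = 0.990). The value was negative in all 18 alternative settings. B cell markers summed to between 20.4 and 431 CPM in HFD+DPI, on either side of the HFD+Veh range.

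Fcgrt was the member whose groups separated. It had 50.4, 46.2, 43.2 and 51.3 CPM in HFD+DPI and 31.7, 42.3 and 31.0 CPM in HFD+Veh. The lowest HFD+DPI library exceeded the highest HFD+Veh library by little, 43.2 against 42.3 CPM. By library totals alone the groups overlapped, since HFD+DPI replicate 2 (136 of 3534325 counts) lay below HFD+Veh replicate 2 (233 of 5518176). With library size scaling the log2 fold change of Fcgrt was 0.52. The mean was 47.8 ± 3.77 CPM (SD, n = 4) against 35.0 ± 6.30 CPM (SD, n = 3), and the log2 fold change was 0.45 (SE 0.30, 95% interval -0.19 to 1.09, edgeR unadjusted p = 0.153). Beside it, the summed sinusoidal endothelial markers were 151, 84.9, 4.27 and 26.9 CPM in HFD+DPI against 9.43 to 14.6 CPM in HFD+Veh, higher in 3 of 4 HFD+DPI libraries. The eosinophil, basophil and mast cell markers were likewise above the HFD+Veh range (2.22 to 22.9 CPM) in 3 of 4 HFD+DPI libraries, up to 131 CPM. The part of these cells in the level of Fcgrt was not tested. Its partner B2m differed by -0.20 (SE 0.20, edgeR adjusted p = 0.999).

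The activating receptors overlapped between HFD+DPI and HFD+Veh. Fcgr1 had 74.9, 94.1, 42.3 and 28.9 CPM in HFD+DPI, a log2 fold change of -0.08 (SE 0.42, 95% interval -0.97 to 0.81). Fcgr3 had 361, 345, 367 and 285 CPM, a log2 fold change of -0.07 (SE 0.22, 95% interval -0.56 to 0.41). For Fcgr3, both a rise of more than 1.33-fold and a fall to less than 0.68 times the HFD+Veh level lie outside that interval, which holds for TMM scaling only.

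Fcgr4 varied most among the HFD+DPI libraries, with 54.1, 129, 23.0 and 73.8 CPM, a range that covered all HFD+Veh values. Its log2 fold change was -0.30 (SE 0.45, 95% interval -1.27 to 0.68).

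The signalling genes gave no larger differences. Fcer1g had 2431, 2198, 2302 and 2107 CPM in HFD+DPI, within the HFD+Veh range, and its log2 fold change was -0.01 (SE 0.19, 95% interval -0.42 to 0.40). Syk had 99.5, 111, 147 and 298 CPM. The 3 lower libraries were all below the lowest HFD+Veh library (153 CPM) and HFD+DPI replicate 4 was above the highest (190 CPM).

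The log2 fold change of Syk was -0.10 (SE 0.36, 95% interval -0.88 to 0.67, edgeR unadjusted p = 0.783), and without HFD+DPI replicate 4 it was -0.56. HFD+DPI replicate 4 also had the highest summed level of B cell markers (431 CPM, led by Cd79a) and of neutrophil markers (5617 CPM), cell types that also express Syk. NC replicate 1 had the next highest level of Syk (206 CPM), with the lowest B cell sum (15.9 CPM) and 1442 CPM of neutrophil markers. The part of these cells in the level of Syk was not tested.

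**Figure D4:**
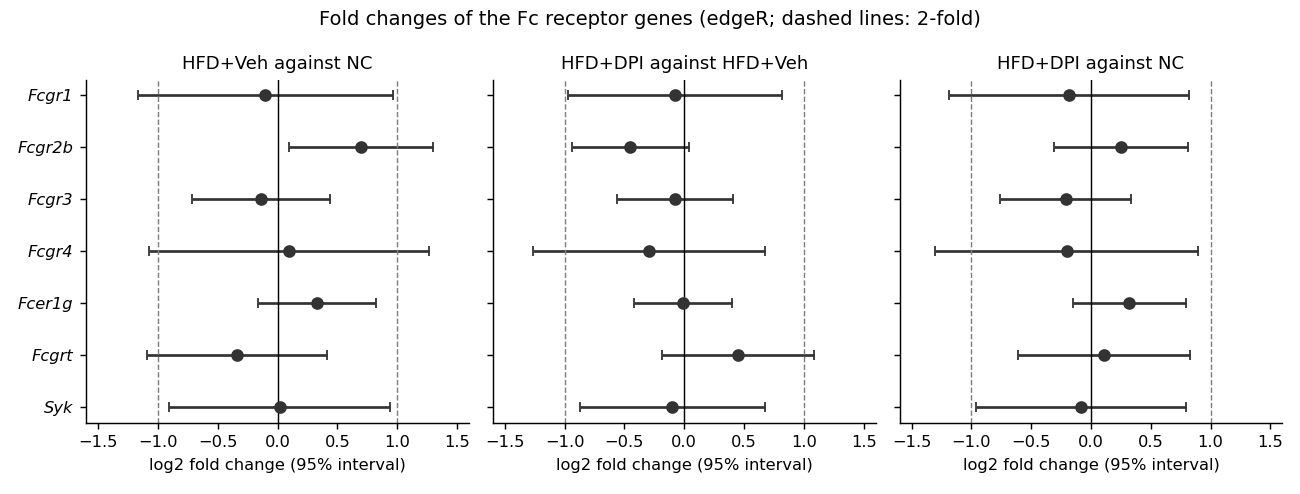
Log2 fold changes of the 7 genes in the 3 comparisons (points) with 95% intervals (bars) from edgeR. The interval of Fcgr2b in HFD+Veh against NC (0.10 to 1.30) does not include 0, all other intervals do, and no point passes the dashed lines at a 2-fold change.

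HFD+DPI was also set against NC, which shares libraries with both comparisons above. None of the 7 genes passed the threshold (6.24% of all tested genes were called higher and 3.05% lower), none had an unadjusted p under 0.05 (10.7% of all genes), and none an adjusted p under 0.05 (0.00878%, edgeR). The groups did not overlap for Fcer1g (20.2% of all genes), with a log2 fold change of 0.32 (SE 0.22, 95% interval -0.15 to 0.79) that was 0.11 with library size scaling. Fcgr2b differed by 0.25 (SE 0.26, 95% interval -0.31 to 0.81) and by 0.0148 with that scaling, Fcgrt by 0.11 (SE 0.33) and Syk by -0.08 (SE 0.41). The activating receptors Fcgr1, Fcgr3 and Fcgr4 differed by -0.18, -0.21 and -0.20, with SEs of 0.47, 0.25 and 0.51, and by -0.45, -0.43 and -0.46 with library size scaling.

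The balance of activating to inhibitory receptor was then taken within each library, as the ratio of counts, which does not depend on how libraries are scaled. The ratio of Fcgr3 to Fcgr2b was 1.197 and 1.757 in NC, 0.755, 0.837 and 0.863 in HFD+Veh, and 1.16, 0.884, 1.30 and 0.957 in HFD+DPI. All 3 HFD+Veh libraries had fewer Fcgr3 than Fcgr2b counts and were below every NC and every HFD+DPI library. On the log2 scale the mean was 0.54 ± 0.39 (SD, n = 2) in NC, -0.29 ± 0.10 (SD, n = 3) in HFD+Veh and 0.09 ± 0.25 (SD, n = 4) in HFD+DPI.

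HFD+Veh was thus below NC by a log2 difference of -0.83, with a two-sided exact permutation p of 0.1, the smallest that 3 libraries against 2 can give. HFD+DPI exceeded HFD+Veh by 0.38 (exact permutation p = 0.0571, where the smallest possible is 0.0286). After adjustment over the 9 ratio tests p was 0.3 for both. With TMM scaling Fcgr2b had the larger log2 fold change of both genes in each of these comparisons. With library size scaling that of Fcgr3 was the larger in HFD+Veh against NC (-0.44, against 0.40 for Fcgr2b), so which gene moved the ratio is not settled there. Of the 6759 other genes with at least 10 counts in every library, 40.7% also had a ratio to Fcgr2b that was lower in every HFD+Veh library than in both NC libraries, and 13.2% had one that was higher in every HFD+DPI library than in all HFD+Veh libraries.

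The other activating receptors gave wider values. The ratio of Fcgr1 to Fcgr2b was 0.305 and 0.191 in NC and 0.171, 0.114 and 0.142 in HFD+Veh, again without overlap, a log2 difference of -0.78 (exact permutation p = 0.1, the smallest possible, and 0.3 adjusted). In HFD+DPI it spanned 0.0972 to 0.241, overlapping both groups. The ratio of Fcgr4 to Fcgr2b was 0.204 and 0.405 in NC, 0.145 to 0.284 in HFD+Veh and 0.0817 to 0.332 in HFD+DPI. All 3 groups overlapped, and its exact permutation p values were between 0.4 and 0.886.

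**Figure D5:**
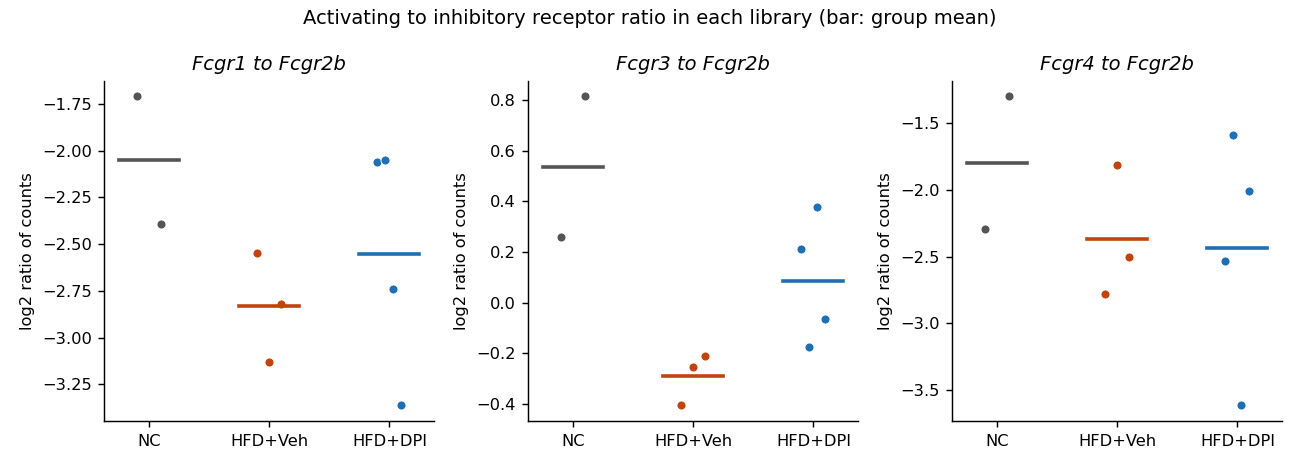
Log2 ratio of the counts of Fcgr1, Fcgr3 and Fcgr4 to those of Fcgr2b in each library, with group means as bars. The Fcgr3 to Fcgr2b ratio is lower in all 3 HFD+Veh libraries (-0.41 to -0.21) than in the NC and HFD+DPI libraries, whereas the Fcgr4 to Fcgr2b ratio overlaps between all groups.

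Other genes of Fc receptor signalling were read from lists of 77 genes, of which 65 passed the filter. In HFD+Veh against NC, 7 of the 65 (10.8%) were called higher and 1 (1.54%) lower, beside 7.03% and 4.63% of all tested genes. Between HFD+DPI and HFD+Veh none were called higher and 4 (6.15%) lower, beside 1.50% and 1.34%, and in HFD+DPI against NC 3 (4.62%) were higher and 1 (1.54%) lower, beside 6.24% and 3.05%. The lists were chosen with earlier results of these data known. The B2m result above is among these counts. Under library size scaling the split was 3 higher and 5 lower in HFD+Veh against NC, none higher and 2 lower (Plcg1 and Dok1) in HFD+DPI against HFD+Veh, and 3 higher and 3 lower in HFD+DPI against NC. Faim3, Pik3r1 and Plcg1 were the 3 higher in both comparisons with NC.

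Of 9 tested other Fc receptors, 2 were called higher in HFD+Veh than in NC and none lower, and their median on the log2 scale was 1.64. Most were at a low level. Faim3, the receptor for IgM, had 0 and 1 counts in NC, 108, 139 and 98 in HFD+Veh and 20, 9, 165 and 387 in HFD+DPI. HFD+Veh exceeded NC 266-fold, with an exact counting interval of 47.5 to 10500 that covers counting error only (edgeR unadjusted p = 0.000656, adjusted p = 0.129). Both NC counts lie under the floor of 3, so the size of this fold is not well determined. Faim3 is a B cell gene, and B cell markers were also higher in each HFD+Veh library. Their part was not tested. Trim21, a cytosolic antibody receptor, had 3 and 0 counts in NC and 28, 2 and 57 in HFD+Veh, and its groups overlapped. Between HFD+DPI and HFD+Veh none of the 9 were called, with a median of 0.21, and in HFD+DPI against NC only Faim3 was, with a median of 1.48.

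Other receptors and adaptors also signal through an ITAM or through Syk. Of 9 tested, 8 had a positive log2 fold change in HFD+Veh against NC (median 0.92), and 2 were called higher, Clec5a (1.50, SE 0.61) and Clec4e (1.36, SE 0.59), receptors on myeloid cells that pair with an ITAM adaptor. Neither passed the adjustment (edgeR adjusted p = 0.340 and 0.361). Clec7a, the beta-glucan receptor Dectin-1, differed by 0.92 (SE 0.33, edgeR unadjusted p = 0.0151), under the fold limit.

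Under DPI, compared with HFD+Veh, all 9 had a negative log2 fold change (median -0.46, against 0.04 for all genes), and 1 was called lower, Clec4n, which encodes Dectin-2 (-1.003, SE 0.36, edgeR adjusted p = 0.999). Clec7a (-0.54, SE 0.27) and Clec4e (-0.83, SE 0.47) did not pass. Against NC, none of the 9 were called in HFD+DPI, and the median was 0.38. Trem2 differed by -0.68 (SE 0.44) there. With library size scaling, none of the 9 were called in any of the comparisons.

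The kinases around Syk include the Src family members that phosphorylate the ITAM. None of the 6 tested were called in any comparison, with medians of -0.02, -0.07 and -0.17, but with library size scaling 1 was, Fyn, lower in HFD+Veh than in NC (-1.36, edgeR unadjusted p = 0.0229, adjusted p = 0.289). Lyn, which also phosphorylates the ITIM of Fcgr2b, was 420 ± 60.5 CPM (SD, n = 2) in NC and 270 ± 26.9 CPM (SD, n = 3) in HFD+Veh, without overlap, and the log2 fold change was -0.64 (SE 0.27, edgeR unadjusted p = 0.0339, adjusted p = 0.352). Between HFD+DPI and HFD+Veh it differed by 0.18 (SE 0.23). Fyn differed by -1.03 (SE 0.52, edgeR unadjusted p = 0.0673) in HFD+Veh against NC.

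Of the 24 adaptors and effectors downstream of Syk, 2 were called higher in HFD+Veh than in NC, with a median of 0.43. Plcg1, a phospholipase that makes the second messengers for calcium release, had no counts in both NC libraries and 122, 79 and 47 in HFD+Veh, at least 32.0-fold higher when each NC library is set to the floor of 3 counts. It was the 1 gene of all these lists that passed the adjustment (edgeR adjusted p = 0.0452). With library size scaling its edgeR adjusted p was 0.0697, and with the replicate number as a block it was 0.188. In the fit of 2 groups no gene at all had an adjusted p under 0.05.

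Plcg1 had 52, 5, 24 and 53 counts in HFD+DPI, a level below every HFD+Veh library, with a log2 fold change of -2.24 (SE 0.67, edgeR unadjusted p = 0.00538, adjusted p = 0.999). The related Plcg2, the main form in myeloid and B cells, differed by -0.87 in HFD+Veh against NC and was called lower in HFD+DPI against NC (-1.13, SE 0.37, edgeR adjusted p = 0.350).

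Pik3r1, the regulatory subunit of PI3-kinase, had 19 and 24 counts in NC, 239, 169 and 146 in HFD+Veh and 84 to 335 in HFD+DPI. It was called higher in both HFD groups than in NC, by log2 fold changes of 3.32 (SE 0.66, edgeR adjusted p = 0.0810) and 2.64 (SE 0.62, adjusted p = 0.143). In HFD+DPI against HFD+Veh, 2 of the 24 were called lower, Plcg1 and the adaptor Sh3bp2 (-1.05, SE 0.47), with a median of -0.13. Lcp2, the adaptor SLP-76, differed by -0.61 (SE 0.27). In HFD+DPI against NC 2 were called higher and 1 lower, with a median of 0.20.

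Genes that restrain the signal include the phosphatase Inpp5d (SHIP1), which the ITIM of Fcgr2b recruits. Of 15 tested, 1 was called lower in HFD+Veh than in NC, the related Inppl1 (-1.91, SE 0.83, edgeR adjusted p = 0.359), and the median was 0.07. Dok3, an adaptor that works with SHIP1, differed by -0.90 (SE 0.31, edgeR unadjusted p = 0.0111), under the fold limit.

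In HFD+DPI against HFD+Veh 1 of the 15 was called lower, Dok1 (-1.10, SE 0.39, edgeR adjusted p = 0.999), and 12 had a negative value (median -0.25). Inpp5d itself was 197 ± 54.4 CPM (SD, n = 3) in HFD+Veh and 108 ± 20.4 CPM (SD, n = 4) in HFD+DPI, without overlap, and the log2 fold change was -0.87 (SE 0.31, edgeR unadjusted p = 0.0138), under the fold limit. None of the 15 were called in HFD+DPI against NC, with a median of -0.22. Of the 7 listed ligands, 2 matched a row and 1, Crp, was tested. It was not called in any comparison.

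The chromosome 1 genes were compared with their surroundings. Within 250000 bases of Fcgr2b, Fcgr3, Fcgr4 and Fcer1g lay 27 other protein-coding genes, of which 26 matched a row and 21 were tested. Of these, 1 was called higher and 1 lower in HFD+Veh against NC, 1 higher in HFD+DPI against HFD+Veh, and 1 higher in HFD+DPI against NC, beside the shares of all tested genes given above. Their median log2 fold changes were 0.45, 0.07 and 0.46, beside 0.03, 0.04 and 0.04 for all tested genes.

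The genes closest in pattern were sought among 6759 genes with at least 10 counts in every library, by the root mean square (RMS) difference of centred log2 CPM over the 9 libraries. For Fcgr2b they were Psme2 (0.16), Laptm5 (0.16) and Psmb7 (0.18), against a median of 0.63 over all genes. For Fcgr3 they were Use1 (0.10), Shfm1 (0.11) and Ube2l3 (0.12), and for Fcer1g they were Rps9 (0.10), Rps27a (0.10) and Cd300lb (0.11).

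Those of Fcgr1 were Fkbp2 (0.12), Actr8 (0.19) and Trmt112 (0.21), and those of Fcgr4 were Rad51d, 2310061I04Rik and Alox8, none nearer than 0.36. Fgfr1op2, Gdi2 and Mfap1a lay closest to Fcgrt (0.10 to 0.13), and Samd8, Ccdc50 and Ell to Syk (0.12 to 0.19). Among the Fc receptor genes themselves, Fcgr3 and Fcer1g were the nearest to each other, at an RMS difference of 0.28, beside medians over all genes of 0.57 for both. Each of both genes varied by less than that on its own, with an RMS of 0.17 for Fcgr3 and 0.18 for Fcer1g. Their small difference therefore does not show a shared pattern. The nearest of the other 6 genes lay at 0.28 for Fcgrt (median over all genes 0.61), 0.32 for Fcgr2b (0.63), 0.51 for Fcgr1 (0.77), 0.54 for Syk (0.70) and 0.65 for Fcgr4 (0.88). It ranked between 210 and 470 among the 6759 genes for all but Syk, where it ranked 1409.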

How the data were processed

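Groups were taken from the sample titles. The authors deposited raw counts per gene as whole numbers for 23413 genes, without normalization, and every column belongs to 1 of the 9 libraries. The submitters' processing notes list TopHat2, edgeR and mm10, whereas the study's methods name bowtie2 and RSEM on mm10, so that it is not settled how reads shared between genes were divided. Read length and annotation are not given in the sources used here. The RNA was poly(A)-selected, per the labels.

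The test was edgeR's quasi-likelihood test (version 4.0.16, R 4.3.3), run after filterByExpr and TMM scaling in 1 fit of the 3 groups, and p was adjusted by Benjamini-Hochberg over the 11393 genes tested. The study's threshold was used, which asks for an unadjusted p below 0.05 and a change of 2-fold or more. The biological coefficient of variation was 0.65. SEs are the size of the log2 fold change over the root of F. Ratios of counts used a pseudocount of 0.5 and two-sided exact permutation tests over all splits. Titles name separate mice, but the study used more mice per group than there are libraries, and whether a library pools mice is not given in the sources used here; p-values measure the spread between these samples. Intervals and floors cover counting error only where counts of single genes are given, because PCR copies were not marked by molecular identifiers. Library totals are given with the results and set a floor of 3 counts.

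Gene positions, transcripts and coding sequences came from GENCODE M21 (GRCm38, the same build as mm10), and gene bounds from RefSeq (GRCm38.p6). Fcgr1 to Syk all matched by symbol, and 71 of 77 pathway genes did. Named genes were all 7 Fc receptor genes, at most 3 genes with the smallest unadjusted p of each pathway list in each comparison, the 3 largest and the absent genes of each marker list, and the 3 closest patterns; further genes named were chosen after their values were seen (Clec4f, Vsig4 and Timd4 among them). The members and lists were chosen with earlier results of these data known. The test was checked for HFD+DPI against HFD+Veh on simulated counts with known fold changes, all genes given the common dispersion. Of 200 genes set to a log2 fold change of 1, 43 passed the study's threshold and 0 had an adjusted p under 0.05. Set to 2, these numbers were 132 and 6, and set to 3 they were 186 and 92. Most set changes of 2-fold were thus missed. Alternatives were RLE, library size scaling, TMM without Rn45s, no filter or a minimum of 10 counts per sample, DESeq2 (1.42.0), edgeR's likelihood ratio test, fits of 2 groups, the replicate number as a block, a ratio pseudocount of 2 and each library left out. Other software was pandas 2.3.3, scipy 1.17.1, numpy 2.4.6, Biopython 1.88 and matplotlib 3.10.9 under Python 3.11.15.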

Additional observations from a re-analysis of the deposited data

How the results depend on the processing

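None of the 7 genes passed the study's threshold in any of the 3 comparisons under 18 alternative fits, and without the fold limit Fcgr2b alone did, in 14 of the 18 in HFD+Veh against NC, in 3 of the 18 in HFD+DPI against HFD+Veh and in none in HFD+DPI against NC. Fcgr2b, Fcer1g and Fcgrt kept their direction in HFD+Veh against NC under all 18, and Fcgr2b, Fcgr4 and Fcgrt did in HFD+DPI against HFD+Veh. Log2 fold changes near 0 changed sign. In HFD+Veh against NC library size scaling gave -0.18 for Fcgr4 and -0.29 for Syk, and RLE and DESeq2 each gave -0.0147 for Syk. In HFD+DPI against HFD+Veh library size scaling gave 0.0092 for Fcgr3, 0.0595 for Fcer1g and 0.012 for Syk, and in HFD+DPI against NC it gave -0.10 for Fcgrt. None of these passed the test, and the cause was not tested.

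Same-numbered libraries of different groups did not deviate together (correlations from -0.02 to 0.08), so the samples share only a number. With the replicate number as a block the values that changed sign were Fcgr1 in each comparison (0.0732, 0.15 and 0.22, in the order used in the report), Syk in HFD+Veh against NC (-0.0696), and Fcgr3 (0.0051) and Fcer1g (0.0304) in HFD+DPI against HFD+Veh. Fcgr2b in HFD+Veh against NC was 0.73 under the block, and over all genes the block moved the number past the study's threshold from 1329 to 897 there, from 324 to 401 in HFD+DPI against HFD+Veh and from 1058 to 818 in HFD+DPI against NC.

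Leaving out single libraries, the log2 fold change in HFD+Veh against NC ranged from -0.46 to 0.42 for Fcgr1, from -0.29 to 0.0733 for Fcgr3, from -0.23 to 0.57 for Fcgr4, from -0.55 to -0.05 for Fcgrt and from -0.20 to 0.32 for Syk. In HFD+DPI against HFD+Veh it ranged from -0.38 to 0.15 for Fcgr1, from -0.16 to 0.0012 for Fcgr3, from -0.77 to -0.0048 for Fcgr4, from -0.0826 to 0.11 for Fcer1g and from -0.56 to 0.0771 for Syk. In HFD+DPI against NC it ranged from -0.53 to 0.34 for Fcgr1, from -0.36 to 0.0012 for Fcgr3, from -0.63 to 0.27 for Fcgr4, from -0.10 to 0.40 for Fcgrt and from -0.55 to 0.21 for Syk. The Fcgr3 to Fcgr2b ratio kept its sign (log2 differences of -1.10 to -0.55 in HFD+Veh against NC and 0.28 to 0.47 in HFD+DPI against HFD+Veh), that of Fcgr1 to Fcgr2b ranged from -1.12 to -0.44 in HFD+Veh against NC and from 0.11 to 0.55 in HFD+DPI against HFD+Veh, and that of Fcgr4 to Fcgr2b ranged from -1.06 to -0.08 and from -0.35 to 0.32. Without 1 NC library the lone other is assumed to vary like the other groups. Over all genes, 7 had an adjusted p under 0.05 in HFD+Veh against NC with edgeR's main test, 312 with DESeq2 and 280 with edgeR's likelihood ratio test. With library size scaling 1 did, and none did in the fit of 2 groups or with the replicate number as a block. Among the pathway lists, library size scaling was the 1 scaling that moved a count of calls. It moved each list by at most 2 genes and turned the split over all lists in HFD+Veh against NC from 7 higher and 1 lower to 3 higher and 5 lower.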
